A study of Mus musculus with 4 samples.

Results

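The genes described here are 10 genes of the absorptive cells of the small intestine, measured in the colon: Sis, Lct, Alpi, Slc5a1, Fabp1, Rbp2, Apob, Apoa1, Apoa4 and Apoc3. They were taken by gene symbol from gene tables of 23699 rows, which hold 23074 gene symbols, and all 10 were found with 1 RefSeq isoform each. RNA was sequenced from 4 libraries of mouse colon, each made from a piece of 2 cm measured from the caecum of a mouse aged 6 weeks. The 2 control libraries carried the genotype Nkx2.2flox/+, with no Cre named, and the 2 mutant libraries carried Nkx2.2flox/flox; Villin-Cre/+. Nkx2-2 is a homeodomain transcription factor of hormone-secreting gut cells, and Villin-Cre drives recombination in the intestinal epithelium. All libraries therefore carried a floxed allele, while the transgene was named in the mutants only, so that the second floxed allele and Cre itself cannot be told apart. The strain is given as mixed, and it is not stated whether replicates are separate animals. The p-values below therefore measure only how far these libraries scatter, which may be technical scatter.

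Enterocytes of the small intestine complete digestion at their brush border. Sucrase-isomaltase, lactase and intestinal alkaline phosphatase are anchored there, and the sodium-glucose cotransporter takes up the sugars released. Fatty acids and retinol are carried through the cytoplasm by small binding proteins, and dietary fat leaves the cell in chylomicrons, lipoprotein particles built on apolipoprotein B and coated with apolipoproteins A-I, A-IV and C-III. The colon absorbs mainly water, salts and short-chain fatty acids, and most of these genes are used far less there. Hepatocytes also make several of the same apolipoproteins and FABP1.

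The tissue label was checked against markers. The colonocyte gene Car1, a carbonic anhydrase, stood between 15112 and 22063 FPKM (fragments scaled by transcript length and library depth). Of 22 listed colonocyte genes, 19 reached a mean of 0.5 FPKM, as did 13997 of all 23074 gene symbols. The other 3 colonocyte genes were low, with Fxyd4 at 0 in every library and Atp12a and Tgm3 at or below 0.613 and 0.247 FPKM. Of 5 listed ileal enterocyte genes, 4 also reached that mean, so this minimum alone does not tell colon from ileum. A list of 8 pan-epithelial genes summed to between 5468 and 6834 FPKM. The precision of low genes is set by depth, which the files do not state. The widths of the deposited 95% intervals imply a depth relative to control 1 of 1.13 in control 2, 0.464 in mutant 1 and 1.03 in mutant 2, and they also imply the number of fragments behind each value. Nkx2-2, the targeted gene, stood at 0.724 and 0.609 FPKM in the controls (0.667 ± 0.0808, SD, n = 2), above the mutants with 0.125 and 0.351 FPKM (0.238 ± 0.160, SD, n = 2), an order that 35.1% of tested genes share. It lay below the minimum for the test used here, and the authors' deposited table gives it a fold of 0.539 with an unadjusted p of 0.687 and an adjusted p of 1. Single libraries stood apart in genes of other cell types. B cell markers, 8 genes, summed to 141.3 FPKM in control 1 and to between 10.3 and 15.1 FPKM elsewhere, and hepatocyte markers, 8 genes, summed to 9.93 FPKM in mutant 2 and to between 0.998 and 1.43 FPKM elsewhere.

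Between genotypes, none of the genes passed the test. Of the 10 genes, 8 reached the minimum mean of 0.5 FPKM and were tested with limma on log2(FPKM + 0.5), with Benjamini-Hochberg adjustment over all 13997 genes at 0.05. Apoa4 reached that minimum only through control 2, without which its mean was 0.0930 FPKM. In that fit 0 of the 8 passed, against 0.0643% of all genes (9 genes), and 0 of the 8 had an unadjusted p below 0.05, against 4.82% of all genes (675 genes). In the authors' deposited table, made with DESeq, 0 of the 10 passed against 0.0384% of its genes, and the smallest unadjusted p was 0.237, for Apoa4. In several of the genes the controls differed more from each other than the mutants did. Control 2 was the highest of the 4 libraries in 6 of the 10 genes, against 27.6% of all tested genes, and lay above control 1 in 9 of the 10, against 39.5%. In Apoa1 and Apoa4 it exceeded control 1 by 34.9 and 39.0 times.

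**Figure D1:**
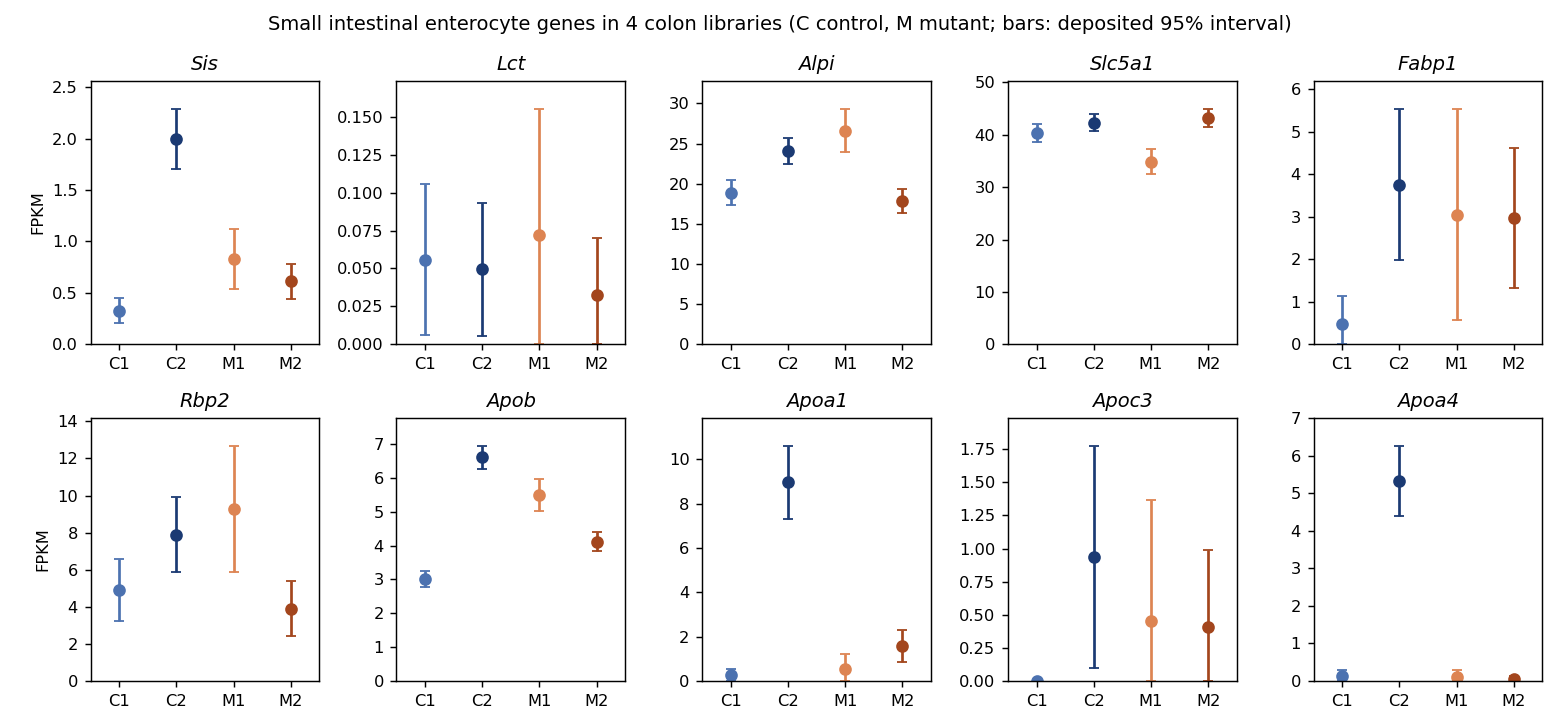
FPKM of each of the 10 genes (panels, each with its own linear axis from 0) in control 1, control 2, mutant 1 and mutant 2, with points for libraries (C control, M mutant) and bars for the deposited 95% interval, which covers counting error. Slc5a1 (34.9 to 43.2 FPKM) and Alpi (17.9 to 26.6 FPKM) vary least across the libraries, while in Apoa1 and Apoa4 the point of control 2 (8.96 and 5.33 FPKM) lies far above the other libraries.

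The start regions of the genes that separated control 2 from the rest, and of the genes they are compared with, are shown first, since they let a reader set an evenly expressed gene beside a close relative that was not. Each sequence is 300 bases long, from 250 bases before to 50 after the start in RefSeq (GRCm38.p6), written 5′ to 3′ on the gene's own strand. Each has 1 exact match in mm9, the build of the files. Entries were found for 9 of the 10 genes, all but Apoc3. Capitals mark matches on either strand to the core of an HNF4-type site, spelled CAAAGTNCA, or to the core of a CDX-type site, spelled TTTATNG. HNF4 and CDX factors are regulators of intestinal epithelial genes. Apoa1 lies at chr9:46036463-46036762 (+), Apoa4 at chr9:46048677-46048976 (+), Alpi at chr1:88998132-88998431 (-), Akp3 at chr1:89021279-89021578 (+) and Sis at chr3:72771736-72772035 (-). The RefSeq starts of Sis and Akp3 lie upstream of the measured gene models, so these windows lie wholly outside them.
Apoa1: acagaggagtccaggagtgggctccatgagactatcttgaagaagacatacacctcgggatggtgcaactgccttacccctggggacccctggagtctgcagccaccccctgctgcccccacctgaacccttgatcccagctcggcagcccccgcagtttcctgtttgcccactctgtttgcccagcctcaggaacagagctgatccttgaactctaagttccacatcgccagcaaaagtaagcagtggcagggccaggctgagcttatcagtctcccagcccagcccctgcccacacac
Apoa4: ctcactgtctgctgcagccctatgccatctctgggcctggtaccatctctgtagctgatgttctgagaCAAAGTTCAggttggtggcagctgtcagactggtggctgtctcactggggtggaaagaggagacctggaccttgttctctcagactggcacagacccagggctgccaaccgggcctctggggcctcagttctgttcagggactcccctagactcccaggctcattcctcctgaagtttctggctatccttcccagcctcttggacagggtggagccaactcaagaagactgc
Alpi: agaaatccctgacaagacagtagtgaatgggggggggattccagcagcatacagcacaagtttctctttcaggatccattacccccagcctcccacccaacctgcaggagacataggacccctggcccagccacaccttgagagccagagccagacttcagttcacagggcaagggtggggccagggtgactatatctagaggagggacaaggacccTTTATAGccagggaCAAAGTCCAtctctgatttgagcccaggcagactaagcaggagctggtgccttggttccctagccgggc
Akp3: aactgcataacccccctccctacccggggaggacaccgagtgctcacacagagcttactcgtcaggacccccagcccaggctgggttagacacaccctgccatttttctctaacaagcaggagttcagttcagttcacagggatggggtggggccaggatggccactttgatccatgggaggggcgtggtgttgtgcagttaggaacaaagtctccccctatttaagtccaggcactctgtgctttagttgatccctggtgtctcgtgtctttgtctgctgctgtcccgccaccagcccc
Sis: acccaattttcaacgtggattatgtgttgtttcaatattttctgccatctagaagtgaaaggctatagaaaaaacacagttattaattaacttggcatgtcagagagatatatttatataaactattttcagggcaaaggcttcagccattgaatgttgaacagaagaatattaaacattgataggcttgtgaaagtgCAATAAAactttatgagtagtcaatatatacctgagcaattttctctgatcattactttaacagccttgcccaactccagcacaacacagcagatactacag

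The HNF4-type core was found in 3 of the 9 start regions (Alpi, Apoa4 and Rbp2) and in 1.41% of 32851 start regions of the same length. The CDX-type core was found in 5 of the 9 (Alpi, Sis, Fabp1, Rbp2 and Apob) and in 10.9% of all. A GATA-type site, spelled AGATAA, was also searched on both strands and found in Lct and Rbp2 and in 11.2% of all. A TATA box, spelled TATAAA, was found on either strand in Alpi, Sis, Fabp1, Rbp2 and Apob and in 13.6% of all. The CDX-type and TATA box matches share bases in Alpi, Apob and Rbp2. The Alpi sequence holds both marked motifs, while its neighbour Akp3 and Apoa1 hold neither, and Apoa4 holds the HNF4-type match alone. A match is a run of letters in this window and says nothing of binding.

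The digestive enzymes of the brush border came first. Sis encodes sucrase-isomaltase, which splits sucrose and starch fragments, and lies on chromosome 3 from 72692482 to 72770788 on the minus strand (mm9, as for all positions below). It stood at 0.327 FPKM in control 1 and 2.00 FPKM in control 2, from 28 and 192 implied fragments, while the mutants had 0.831 and 0.612 FPKM, from 33 and 53. Both mutants lay between the controls. The group means were 1.16 ± 1.18 and 0.721 ± 0.155 FPKM (SD, n = 2 each), and the log2 change of mutant against control was −0.24 (SE 0.48, 95% interval −1.34 to 0.86, limma adjusted p = 0.882). Control 2 was 6.08-fold above control 1 by implied fragments, with an exact interval of 4.07 to 9.39 that covers counting error only. Mutant 2 stood at 0.723 of mutant 1 (0.460 to 1.15).

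Lct encodes lactase, the milk sugar enzyme, which falls at weaning in most mammals. It lies on chromosome 1 from 130181341 to 130224895 and was close to the limit of detection in every library. The controls had 0.0557 and 0.0494 FPKM and the mutants 0.0720 and 0.0324 FPKM, from 5, 5, 3 and 3 implied fragments over a transcript of 6166 bases. At this depth no difference was detectable, and Lct was below the minimum for the test.

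Alpi encodes the intestinal alkaline phosphatase and was the second most abundant of the 10 per length. The controls had 18.9 and 24.1 FPKM and the mutants 26.6 and 17.9 FPKM, from at least 396 implied fragments in each library. The groups overlapped fully, with the mutants as the highest and the lowest library. The means were 21.5 ± 3.66 and 22.2 ± 6.17 FPKM (SD, n = 2 each) and the log2 change was 0.03 (SE 0.24, interval −0.52 to 0.59, limma adjusted p = 0.968).

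Alpi lies at 88994577 to 88998181 on the minus strand of chromosome 1, beside Akp3 at 89021583 to 89024487 on the plus strand, a related alkaline phosphatase of the small intestine. Akp3 is not among the 10 and was named as a gene whose reads could be shared with Alpi. It was nearly absent from 3 libraries, with 0.0451 FPKM in control 1 and 0.194 FPKM in mutant 1, from 1 and 2 implied fragments, and 0 in mutant 2, where the 3 fragments that a count of 0 allows would be 0.131 FPKM. In control 2 it reached 5.04 FPKM, from 126 implied fragments, and only through this library did its mean reach the minimum for the test. The 2 neighbours thus differed: control 2 over control 1 was 1.27 for Alpi (exact interval 1.15 to 1.42) and 111.7 for Akp3 (19.7 to 4445, the lower count being 1). The log2 change of Akp3 by genotype was −1.56 (SE 0.88, interval −3.58 to 0.46, limma adjusted p = 0.825). Alppl2, the third gene of the cluster, stayed between 0 and 0.309 FPKM.

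Slc5a1 encodes SGLT1, the apical cotransporter of sodium with glucose and galactose, and was the most abundant of the 10 per length. It lies on chromosome 5 from 33446868 to 33505348, plus strand. Controls stood at 40.4 and 42.3 FPKM and mutants at 34.9 and 43.2 FPKM, from between 908 and 2681 implied fragments. The highest library exceeded the lowest by 1.24 times, the smallest such ratio of the 10 genes, and the groups overlapped. The means were 41.4 ± 1.40 and 39.0 ± 5.85 FPKM (SD, n = 2 each), with a log2 change of −0.09 (SE 0.19, interval −0.52 to 0.34, limma adjusted p = 0.887). That sign turns to 0.08 after median ratio rescaling between libraries and 0.07 after quantile normalization. The related glucose-sensor genes Slc5a4a and Slc5a4b stayed at or below 0.310 FPKM in every library.

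The binding proteins differed from each other in their spread. Fabp1 encodes the liver-type fatty acid binding protein, which in the small intestine carries fatty acids taken up at the brush border, and lies on chromosome 6 from 71149882 to 71155017, plus strand. It stood at 0.471 FPKM in control 1, 3.76 in control 2, 3.04 in mutant 1 and 2.97 in mutant 2. The transcript has only 492 bases, so these levels rest on 2, 18, 6 and 13 implied fragments. Control 1 was the library apart here. The means were 2.11 ± 2.32 and 3.01 ± 0.0531 FPKM (SD, n = 2 each), the log2 change was 0.79 (SE 0.57, interval −0.53 to 2.10, limma adjusted p = 0.825), and control 2 over control 1 was 7.98 with an exact interval of 1.91 to 70.9.

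Relatives of Fabp1 were far more abundant. Fabp2, the intestinal fatty acid binding protein, had 433.7 and 766.9 FPKM in the controls and 732.6 and 808.3 FPKM in the mutants, again with control 1 lowest (log2 change 0.42, limma unadjusted p = 0.143). Fabp6, the ileal bile acid binding protein, had 42.0 and 53.2 FPKM in the controls and 63.0 and 56.7 FPKM in the mutants. Both are thus well above Fabp1 per length in each library.

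Rbp2 encodes the cellular retinol binding protein of enterocytes and lies on chromosome 9 from 98390956 to 98410190, plus strand. Controls had 4.89 and 7.90 FPKM and mutants 9.28 and 3.90 FPKM, from 34, 62, 30 and 28 implied fragments. The mutants were again the highest and lowest libraries. Rbp2 was the 1 tested gene of the 8 whose mutants differed by at least 2-fold on the log2(FPKM + 0.5) scale, against 2.68% of all genes, with mutant 2 at 0.420 of mutant 1 (exact interval 0.242 to 0.728). The means were 6.39 ± 2.13 and 6.59 ± 3.81 FPKM (SD, n = 2 each) and the log2 change was −0.04 (SE 0.38, interval −0.91 to 0.84, limma adjusted p = 0.983). This sign too turns with the scaling, to 0.13 after median ratio rescaling and 0.20 after quantile normalization.

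Apob supplies the scaffold protein of chylomicrons in the intestine and of VLDL in the liver. It lies on chromosome 12 from 7984483 to 8023645, plus strand, and its transcript of 13909 bases gave between 527 and 1541 implied fragments. The levels were 3.02 and 6.61 FPKM in the controls and 5.50 and 4.12 FPKM in the mutants, so that both mutants lay between the controls. The controls differed by 2.19 times (exact interval 2.00 to 2.41). The genotype means, 4.82 ± 2.54 and 4.81 ± 0.972 FPKM (SD, n = 2 each), were nearly equal, and the log2 change was 0.07 (SE 0.34, interval −0.70 to 0.85, limma adjusted p = 0.948).

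The other apolipoproteins lie in one cluster on chromosome 9: Apoa1 at 46036713 to 46038549 (plus), Apoc3 at 46041134 to 46043380 (minus), Apoa4 at 46048927 to 46051541 (plus) and Apoa5, which is not among the 10, at 46076691 to 46080002 (plus). Apoa1 encodes the main protein of HDL. Its levels were 0.257 FPKM in control 1, 8.96 in control 2, 0.553 in mutant 1 and 1.58 in mutant 2, from 3, 118, 3 and 19 implied fragments. Control 2 was highest by a wide margin, mutant 2 came next, and both mutants lay between the controls. The means were 4.61 ± 6.15 and 1.07 ± 0.724 FPKM (SD, n = 2 each), the log2 change was −0.85 (SE 0.96, interval −3.06 to 1.35, limma adjusted p = 0.834), and control 2 over control 1 was 34.9 with an exact interval of 11.6 to 171.4.

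Apoa4 encodes a chylomicron protein whose synthesis follows fat absorption. Its levels were 0.137 FPKM in control 1, 5.33 in control 2, 0.0981 in mutant 1 and 0.0442 in mutant 2, from 3, 132, 1 and 1 implied fragments. Only control 2 held more than a trace. Both mutants were below both controls, the 1 case of the 10 genes in which the groups did not overlap, but 35.1% of all tested genes had this order. The means were 2.73 ± 3.67 and 0.0712 ± 0.0382 FPKM (SD, n = 2 each). The log2 change was −1.76 (SE 0.84, interval −3.67 to 0.16, limma unadjusted p = 0.0680, adjusted p = 0.825), and it ran from −2.75 with a pseudocount of 0.1 to −1.32 with a pseudocount of 1. Control 2 over control 1 was 39.0 with an exact interval of 13.1 to 191.5.

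Apoc3 encodes an inhibitor of the clearance of triglyceride-rich particles. Control 1 was at 0 and control 2 at 0.937 FPKM, and the mutants had 0.455 and 0.410 FPKM, from 0, 5, 1 and 2 implied fragments, and was below the minimum for the test. The count of 0 in control 1 allows up to 0.634 FPKM, so no difference between these libraries was detectable. Apoa5, a further gene of the cluster that is mainly expressed in liver, stayed at or below 0.203 FPKM. Within the cluster, then, control 2 was far above the rest in Apoa1 and Apoa4, and highest from only 5 fragments in Apoc3. In Apoa5 no order was detectable, with 0, 3, 3 and 2 implied fragments in control 1, control 2, mutant 1 and mutant 2.

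**Figure D2:**
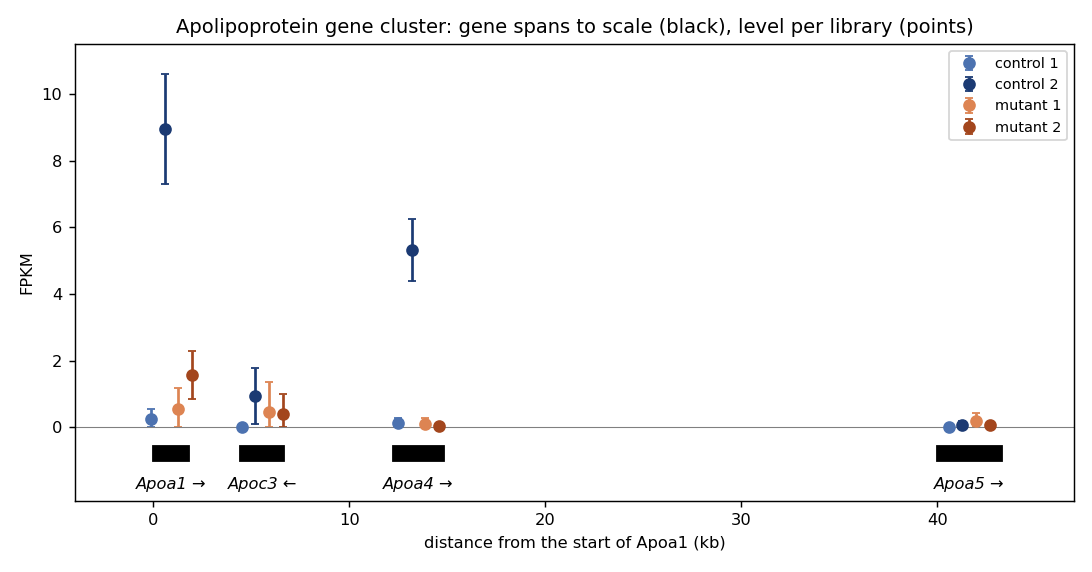
FPKM of the 4 cluster genes in the 4 libraries (points, with deposited 95% intervals as bars) against distance from the start of Apoa1 in kilobases, with gene spans to scale in black and arrows for strand. Control 2 stands above the others in Apoa1 (8.96 FPKM) and Apoa4 (5.33 FPKM), and Apoc3 and Apoa5 stay below 1 FPKM throughout.

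The replicates of a group differed widely in some of the genes. Among the 8 tested genes, the controls differed by at least 2-fold in 5 (Sis, Fabp1, Apoa1, Apoa4 and Apob), each with control 2 higher, against 3.31% of all genes in either direction and 0.9% with control 2 higher. The difference between the controls exceeded the difference between the genotypes in 7 of the 8, against 49.6% of all genes. Control 2 lay above control 1 in 8 of the 8, against 39.5% of all genes. Apoa4 is among the 8 only through its level in control 2, which favours these counts. Both mutants fell between the controls in 5 of the 10, against 9.73% of all tested genes. On the log2(FPKM + 0.5) scale, control 2 minus control 1 was 3.64 for Apoa1, 3.20 for Apoa4, 2.13 for Fabp1, 1.59 for Sis and 1.02 for Apob, and it was 0.64 for Rbp2, 0.34 for Alpi and 0.07 for Slc5a1. In these last 3 the mutants lay further apart than the controls, with mutant 2 minus mutant 1 at −1.15, −0.56 and 0.30. The median over all genes was −0.06. Of all 13997 genes, 7 had a difference of at least that of Apoa1 and 11 at least that of Apoa4.

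**Figure D3:**
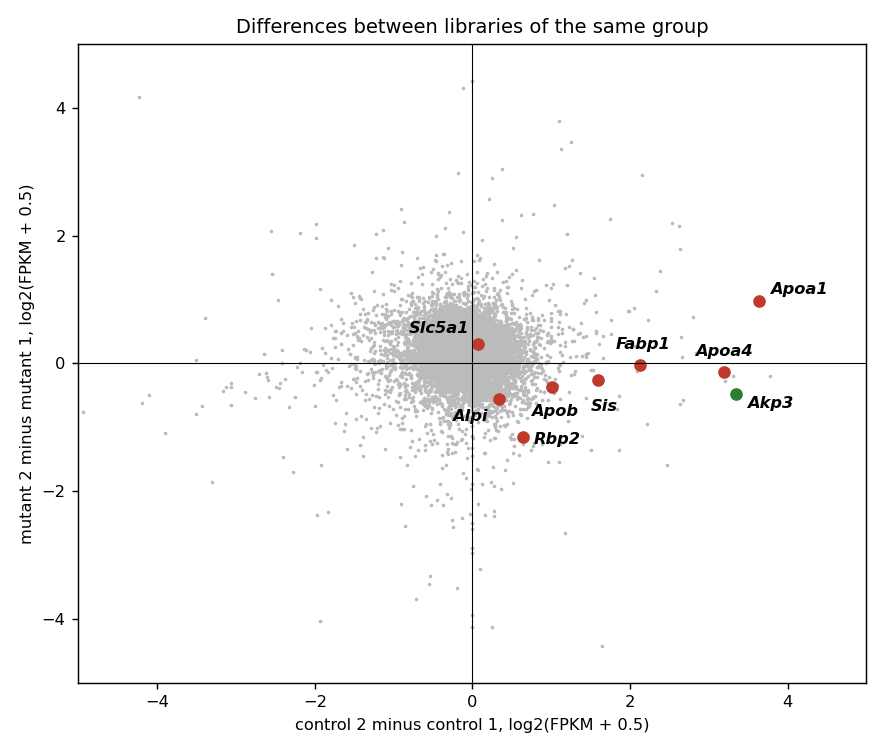
Difference between the replicates of each group for every tested gene, as log2(FPKM + 0.5), with control 2 minus control 1 on one axis and mutant 2 minus mutant 1 on the other (24 genes lie outside the axes). Apoa1, Apoa4 and the neighbour gene Akp3 lie far to the control 2 side of the cloud, while Slc5a1 and Alpi lie within it.

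Taking the libraries one by one, at least a 4-fold excess over each other library, a limit chosen after the values were seen, was found in 31 genes for control 1 (0.221% of all), 3 genes for control 2 (0.0214%), 24 for mutant 1 (0.171%) and 8 for mutant 2 (0.0572%). The 3 genes of control 2 were Apoa4, Akp3 and Apoa1, with log2 distances between 2.19 and 3.20 to the next library. Apoa4 and Akp3 were tested only because of their level in control 2. Those of control 1 included B cell genes and small RNA genes, and none was among the 10. The hepatocyte gene Alb was among those of mutant 2, with 5.54 FPKM against at most 0.312 FPKM elsewhere. Like Apoa4 and Akp3, Alb met the minimum for the test only through the library where it is high. Other genes of control 1, mutant 1 and mutant 2 did so too, which favours these counts.

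Marker lists of other cell types were compared across the same libraries. The hepatocyte list summed to 1.31 FPKM in control 1, 0.998 in control 2, 1.43 in mutant 1 and 9.93 in mutant 2. In that order, 4, 1, 1 and 0 of its 8 genes were at 0. Its defining gene Alb stood at 0 in control 1 and at 0.0962 FPKM in control 2. The pancreatic acinar list summed to 0.0869 FPKM in control 2, with 4 of 5 genes at 0, and to at most 0.456 FPKM elsewhere. The ileal enterocyte list, 5 genes, summed to 507.1 FPKM in control 1 and 587.7 in control 2, both below the mutants at 602.2 and 652.4. Its largest part was Ostb, with 269.5 to 366.4 FPKM. Control 2 was the highest library in 2 of its 4 tested genes, against 27.6% of all tested genes. These were Slc10a2 (116.0 FPKM against 72.5 to 101.2) and Osta (148.9 FPKM against 105.0 to 142.6), while Fabp6 and Ostb were highest in a mutant. The Paneth cell list, 10 genes of a cell type of the small intestine, was highest in control 1 at 105.7 FPKM and had 71.7 FPKM in control 2. The colonocyte list, 22 genes, was highest in control 2 (34419 FPKM against 25873 to 27824), as was the pan-epithelial list. Smooth muscle markers, 6 genes, ran from 1409 FPKM in mutant 1 to 1912 FPKM in control 1, with 1715 FPKM in control 2. The part of the hepatocyte, colonocyte and B cell levels in the results above was not tested. In whole tissue, fewer cells of a type and less RNA per cell cannot be told apart.

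For Apoa1, Apoa4 and Fabp1, the genotype comparison turned on which control was kept. Without control 1, Apoa1 and Apoa4 passed as lower in the mutants (2 of 8, against 0.379% of all genes passing as lower), with log2 changes of −2.68 (limma adjusted p = 3.913e-11) and −3.35 (1.653e-14). Without control 2, neither passed, with log2 changes of 0.97 (adjusted p = 0.355) and −0.16, and Fabp1 passed as higher at 1.85 (adjusted p = 5.878e-05), 1 of 8 against 0.636% of all genes. Sis ran from −1.04 without control 1 to 0.56 without control 2 and passed in neither. Each of these fits has a lone control, whose spread is assumed to be like that of the mutants and other genes, so their p-values leave out the very difference seen between the controls. These fits also kept the filter on the mean of all 4 libraries, which Apoa4 passed only through control 2. Without mutant 1 or without mutant 2, 0 of the 8 passed, against 0.0572% and 0.0857% of all genes.

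**Figure D4:**
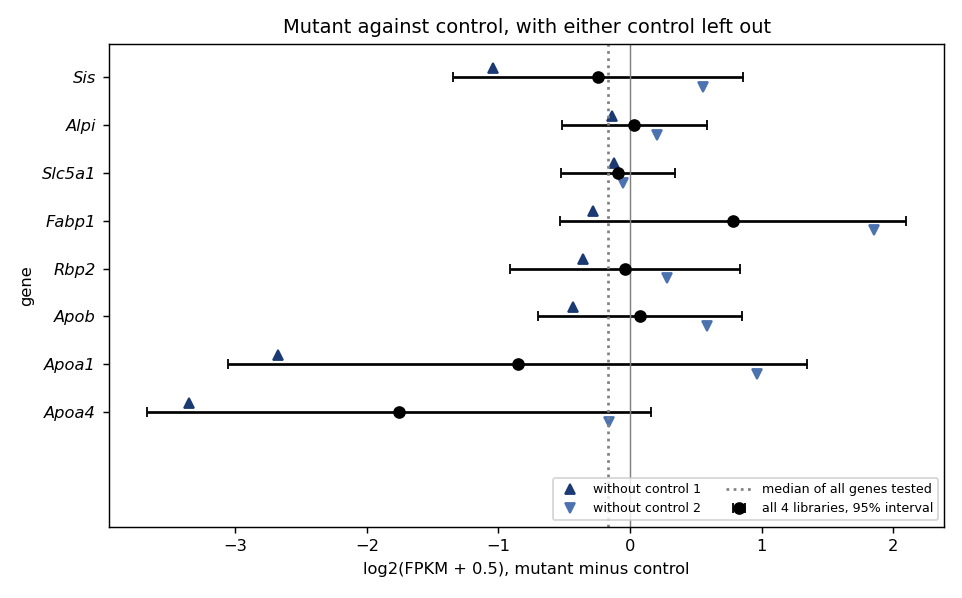
Log2 change of mutant against control for each of the 8 tested genes on the log2(FPKM + 0.5) scale, with 95% limma intervals (circles and bars), the values without either control (triangles) and the median of all genes (dotted line). All 8 intervals cover 0, and the values of Apoa1 (−2.68 and 0.97) and Fabp1 (−0.28 and 1.85) move to opposite sides of 0 with the control that is left out.

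As a set, the 8 tested genes had 3 changes above 0 and 5 below, with a median log2 change of −0.06, beside −0.17 over all genes, of which 82.6% lay below 0. After median ratio rescaling the median was 0.11 beside −0.01 for all genes, and after quantile normalization 0.13 beside 0.00. The authors' deposited table put Apoa4 at a mean normalized count of 50.1 in the controls against 1.44 in the mutants, Slc5a1 at 1907 against 1989 and Alpi at 558.3 against 655.2. Its adjusted p was 1 for each of the 10.

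Other genes of the same pathways were counted in 6 lists. Of 88 genes listed, 87 were found and 72 tested. In limma 0 of the 72 passed (0.0643% of all genes did), 7 had an unadjusted p below 0.05 (9.72%, against 4.82% of all genes), 18 had changes above 0 and 54 below (75.0% below, against 82.6% of all genes), and the median was −0.12, beside −0.17 for all genes. The counts of each list below are read against these shares.

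Among 11 tested brush border hydrolases, 5 lay above 0 and 6 below. The meprin genes Mep1a and Mep1b, which encode brush border metalloproteases, had 101.3 to 134.4 and 126.5 to 189.2 FPKM over the libraries, and Mgam, which encodes maltase-glucoamylase, the relative of sucrase-isomaltase, had 33.6 to 40.9 FPKM. Mgam therefore exceeded Sis per length in every library and was even where Sis was not. Xpnpep2, a membrane aminopeptidase, had 17.1 FPKM in control 1, 5.56 in control 2, 5.17 in mutant 1 and 3.85 in mutant 2 (log2 change −1.06, limma unadjusted p = 0.0413). Here control 1 was the high library, the reverse of Apoa4. The 2 tested alkaline phosphatases of that list, Akp3 and the tissue-nonspecific Alpl (5.67 and 3.82 FPKM in controls, 2.79 and 3.74 FPKM in mutants), both lay below 0.

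The 15 tested nutrient transporters had 6 changes above 0 and 9 below. Slc3a1 and Slc7a9 encode the heavy and light chains of the apical carrier of cystine and dibasic amino acids. Each had both mutants above both controls, against 3.39% of all genes in this order. They had the 2 smallest p of this list, a choice that favours such an order. Slc3a1 had 21.2 and 24.0 FPKM in the controls and 40.4 and 30.1 FPKM in the mutants (log2 change 0.62, limma unadjusted p = 0.0174, adjusted p = 0.825). Slc7a9 had 4.70 and 8.20 FPKM in the controls and 11.2 and 10.9 FPKM in the mutants (log2 change 0.78, unadjusted p = 0.0184, adjusted p = 0.825). Slc3a2, the heavy chain of basolateral carriers, had 27.7 and 23.1 FPKM in the controls and 18.1 and 24.5 FPKM in the mutants, and the iron exporter gene Slc40a1 ranged from 93.6 to 153.1 FPKM. Slc2a5, the fructose transporter, and Slc6a19, a neutral amino acid transporter, both chosen after their values were seen, shared the order of Sis in the controls, with 0.552 against 2.08 FPKM and 0.179 against 0.871 FPKM in control 1 and control 2.

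The 18 tested genes of fat uptake and chylomicron assembly had 5 changes above 0 and 13 below. In 0 of these 18 did the controls differ by at least 2-fold on the log2(FPKM + 0.5) scale, against 3.31% of all genes. With 18 genes, that count does not set the list apart. Sar1b, a GTPase of chylomicron export, had 99.1 and 99.4 FPKM in the controls and 89.5 and 87.4 FPKM in the mutants, and Cideb, a lipid droplet protein of lipoprotein loading, had 68.0 to 81.2 FPKM. The lipid droplet coat gene Plin2 had 61.4 and 50.9 FPKM in the controls and 37.1 and 46.4 FPKM in the mutants (log2 change −0.43, limma unadjusted p = 0.0625). Tm6sf2, a membrane protein of lipoprotein lipidation, had 6.26 and 5.06 FPKM in the controls and 7.69 and 9.11 FPKM in the mutants (log2 change 0.53, unadjusted p = 0.0390). None passed after adjustment (adjusted p = 0.825 or above).

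Of 9 tested genes of retinoid handling, 1 lay above 0 and 8 below. Aldh1a1, which encodes a retinaldehyde dehydrogenase, was the 1 above, with 235.9 and 248.7 FPKM in the controls and 343.8 and 296.5 FPKM in the mutants (log2 change 0.40, limma unadjusted p = 0.0438). Adh1, an alcohol dehydrogenase that can oxidize retinol, had 121.5 and 140.8 FPKM in the controls and 62.6 and 101.5 FPKM in the mutants (log2 change −0.71, unadjusted p = 0.0182). In neither case did the groups overlap, as in 3.39% of all genes in the direction of Aldh1a1 and 35.1% in that of Adh1, whereas those of Rbp2 did. Aldh1a1 and Adh1 had the 2 smallest p of this list, a choice that favours groups that do not overlap.

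Regional transcription factors, 17 tested, had 1 change above 0 and 16 below (94.1% below, against 82.6% of all genes), and in limma 0 had an unadjusted p below 0.05, against 4.82% of all genes. Hnf4a had 204.0 and 228.7 FPKM in the controls and 164.2 and 215.9 FPKM in the mutants, and Cdx1 235.8 and 232.6 FPKM against 184.3 and 266.2 FPKM. Control 2 was the highest library for Hnf4a, by a small margin, and not for Cdx1. In 1 of the 17 the controls differed by at least 2-fold, against 3.31% of all genes. This was Creb3l3, a factor of lipoprotein genes chosen after its values were seen. It had 0.384 and 1.30 FPKM in the controls and 0.965 and 0.559 FPKM in the mutants. Gata4, a factor of the proximal small intestine also chosen after its values were seen, stayed at or below 0.180 FPKM.

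**Figure D5:**
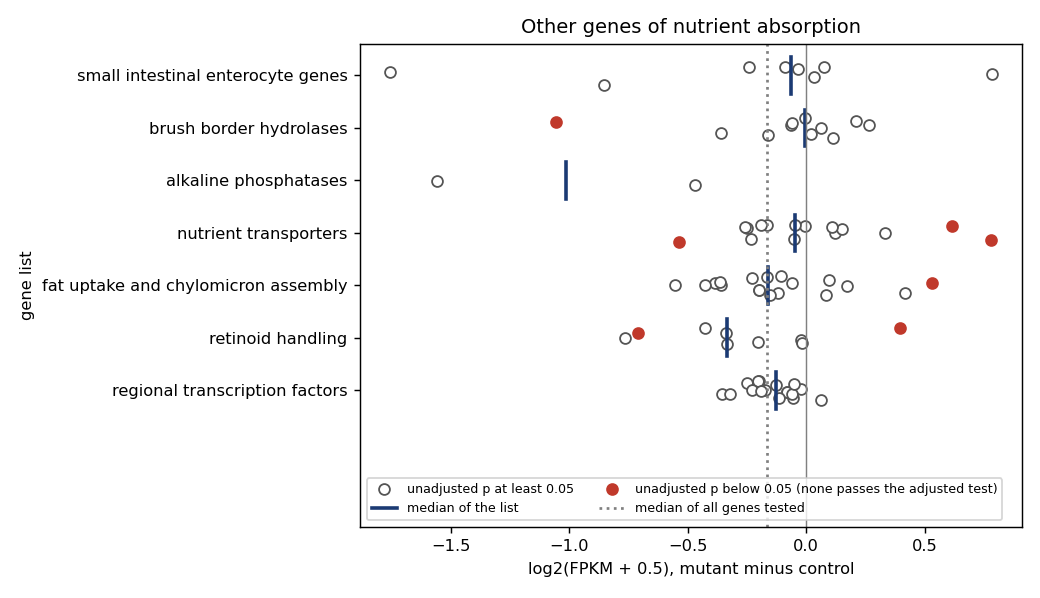
Log2 change of mutant against control of each tested gene in the 6 pathway lists and, in the top row, the 8 tested enterocyte genes (points, filled where the unadjusted p is below 0.05), with list medians as blue lines and the median of all genes (−0.17) dotted. The list medians lie between −0.33 and −0.01 except for the 2 alkaline phosphatases (−1.01).

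Ordered by the mean of the 4 libraries, the levels per length were 40.2 FPKM for Slc5a1, 21.8 for Alpi, 6.49 for Rbp2, 4.81 for Apob, 2.84 for Apoa1, 2.56 for Fabp1, 1.40 for Apoa4, 0.942 for Sis, 0.451 for Apoc3 and 0.0524 for Lct. The libraries of Slc5a1 lay above all those of Alpi, and those of Alpi above all those of Rbp2. From Rbp2 down, each gene's range overlapped that of the next, so the ranges do not separate neighbours in that stretch. Within each library, however, Sis lay above Apoc3, whose values rest on 5 implied fragments or fewer. The other neighbours there changed order between libraries. The places of Apoa1 and Apoa4 rest on control 2. Without it, an alternative chosen after seeing the data, their means were 0.796 and 0.0930 FPKM, and Apoa1 came after Fabp1 while Apoa4 came after Sis (0.590) and Apoc3 (0.289).

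On the log2(FPKM + 0.5) scale Apoa1 had the largest range of the tested enterocyte genes over the libraries, and other genes were ranked by likeness to it, as the root mean square distance of log2(FPKM + 0.5) values centred on each gene's mean over the 4 libraries. Of 13996 genes, with a median distance of 1.39, the nearest included Ms4a10 (0.55), Gm1965 (0.61), Apoa4 (0.62) and Akp3 (0.63). Ms4a10 had 0.831 and 7.66 FPKM in the controls and 0.358 and 3.30 FPKM in the mutants, and Gm1965 had 0.944 and 8.43 FPKM against 1.35 and 5.95 FPKM. All 4 had control 2 as the highest library, which the choice of Apoa1 as reference favours.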

How the data were processed

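RNA of 2 control and 2 mutant colon libraries was made into TruSeq RNA libraries, per the labels' protocols. Tools named in the submitters' processing notes are Cufflinks, DESeq, TopHat and bcl2fastq 1.8.4, with the build mm9. The authors deposited FPKM per gene with 95% intervals and a status, and per isoform also coverage as a signal, per the file headers. The authors' deposited table for the series gives mean normalized counts (a signal), the fold change as a ratio, its log2 value, p-values and adjusted p-values.

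No count model was fitted to FPKM. Rows not OK in a library (306 of 23699) were left out, rows sharing a symbol were summed, and the 13997 genes whose mean reached 0.5 FPKM were tested. The test was limma 3.58.1 under R 4.3.3, with a variance trend and Benjamini-Hochberg adjustment, on the log2(FPKM + 0.5) scale. This scale understates changes of low genes. It had 2 residual degrees of freedom and 6.27 (median) from the prior. An exact permutation test of 2 against 2 cannot go below p = 0.333, so none is given.

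Implied fragments come from interval widths, since the files state no depth. Per relative depth, mutant 1 (0.464 of control 1) is the least precise library. They were within 0.05 of a whole number for 86.6% to 87.6% of genes under 50 fragments. Ratios of implied fragments have exact binomial intervals (SciPy 1.17.1) for counting error only. Across libraries, Pearson correlations over tested genes, which are not independent replicates, ran from 0.965 to 0.984.

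Named were the 10 genes, Nkx2-2, relatives whose reads could be shared and the genes nearest to Apoa1. From each list came the 3 genes with the highest mean and, for pathways, the 2 with the smallest p. The colonocyte genes Fxyd4, Atp12a and Tgm3 were named for falling below the minimum for the test. The text marks any other gene as picked on its values. A few genes picked by these rules are left out here. The 10 genes, the 6 pathway lists and the 8 marker lists (colonocyte, ileal enterocyte, Paneth cell, hepatocyte, pancreatic acinar cell, epithelium, B cell and smooth muscle) were chosen with earlier results of these data known. Start regions come from the RefSeq table (GRCm38.p6) and were placed on mm9 by exact match.

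Tested on simulated data of mutant against control over 13997 genes, the fit recovered 6% of the 50 genes changed 2-fold and 58% of those changed 4-fold. For 8-fold it was 76% and for 16-fold 82%, and 5 unchanged genes were called. There were 15 alternatives: pseudocount, filter, scaling, variance trend, handling of rows, replicate block, each library left out, and the authors' table.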

Additional observations from a re-analysis of the deposited data

How the results depend on the processing

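Of 15 alternatives, the number of genes past the threshold in limma, 9 as reported, became 2 with no filter, 3 after median ratio rescaling, 2 after quantile normalization and between 8 and 362 with 1 library left out (124 without control 1, 362 without control 2). The number among the 8 tested enterocyte genes, 0 as reported, ran from 0 to 2 with 1 library left out, and the number among the 72 list genes from 0 to 4. Those 4, without control 2, were Fabp2 (0.83), Slc7a9 (1.15), Xpnpep2 (−1.83) and Stra6 (−1.50, chosen after its values were seen), and without control 1 the 1 gene was Akp3 (−3.23). With the replicate number as a block, 195 genes passed (1.39% of all), among them 1 of the 8 (Apoa4, log2 change −1.76, limma adjusted p = 5.519e-05) and 2 list genes, Akp3 and Xpnpep2. The numbers only name the libraries: deviations of same-numbered libraries had a correlation of −0.00217 over 13997 genes, and with fewer than 3 pairs the data cannot show a pairing.

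Directions of values near 0 turned with the scaling. After median ratio rescaling the log2 change was 0.13 for Rbp2, 0.0824 for Slc5a1, 0.0943 for Cdx1, 0.0193 for Cideb, 0.0119 for Mep1a, 0.0086 for Sar1b and 0.0103 for Slc40a1. After quantile normalization it was 0.20 for Rbp2, 0.07 for Slc5a1 and 0.0494 for Cdx1. In the authors' deposited table it was 0.25 for Rbp2, 0.0609 for Slc5a1, 0.0834 for Cdx1, 0.0036 for Cideb and 0.051 for Slc40a1. With 1 library left out, the changes ran from −1.04 to 0.56 for Sis, −0.25 to 0.31 for Alpi, −0.28 to 1.85 for Fabp1, −2.68 to 0.97 for Apoa1, −0.43 to 0.58 for Apob, −0.61 to 0.54 for Rbp2, −0.24 to 0.0613 for Slc5a1, −3.23 to 0.11 for Akp3, −0.34 to 0.18 for Cdx1, −0.36 to 0.0406 for Mep1a, −0.23 to 0.35 for Mep1b, −0.0109 to 0.24 for Mgam and −0.52 to 0.19 for Slc40a1. The median of the 8 genes ran from −0.39 to 0.42. Apoa4 stayed below 0 under each alternative, from −5.12 in the authors' table to −0.16 without control 2. The cause of these moves was not tested. Depth limits Lct, Apoc3 and Fabp1 in every library, and Apoa1 and Apoa4 outside control 2, which rest on 19 fragments or fewer.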
